A study of Homo sapiens with 4 samples.

Results

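The insulin-like growth factor (IGF) binding proteins, the IGF receptors and IGF2 were described in a pair of clones of SW620, a human colon cancer cell line. The family comprised IGFBP1 to IGFBP7, IGF1R, IGF2R and IGF2, which is 10 genes. Every probe set that the platform annotation assigned to a member was included, which gave 27 probe sets of the 54613 tested. Of these, 24 named 1 gene, and the 3 for IGF2 named both IGF2 and INS-IGF2, a readthrough transcript. The family was selected on these same arrays, because the signal of IGFBP2 differed strongly between the clones. The differences between clones are therefore given as a description, with no p-value for any member. Where a member passed the threshold of the fit over the whole table this is stated, and it is no independent evidence.

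RNA was hybridised to 4 Affymetrix human U133 Plus 2.0 arrays, with 2 arrays of the CD133+ clone CPC1 and 2 arrays of the CD133- clone CNC1. SW620 cells were sorted with magnetic beads for CD133, a membrane protein encoded by PROM1 and used as a marker of tumour-initiating cells. Single sorted cells were plated and grown into clones in L-15 medium with serum, and the clone cells were purified once more by CD133 before total RNA was taken. No treatment or genetic change beyond the sorting was labelled, and the question of the study was which genes differ between populations that may differ in tumour formation and drug sensitivity. Each group was 1 clone, so an effect of the clone and one of CD133 cannot be told apart. Nothing in the labels placed the arrays of a clone in separate cultures, so every p-value reflects only how far these arrays spread, and that spread may be technical.

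IGF1 and IGF2 are secreted growth factors that activate the receptor tyrosine kinase IGF1R, which signals to cell growth and survival through PI3K and AKT. IGF2R has no kinase activity and takes IGF2 into the cell for degradation. The binding proteins IGFBP1 to IGFBP6 hold the ligands outside the cell with high affinity and so limit or prolong their access to the receptor, while IGFBP7 binds them weakly. IGF2 is often raised in colorectal tumours.

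The 250 bases before the listed transcription starts are shown for the binding protein with the largest difference between clones, IGFBP2, and for its neighbour on the opposite strand, IGFBP5. Those of IGFBP3 and IGF1R follow. Every probe set of IGFBP3 had a higher mean in the CD133+ clone, and every probe set of IGF1R a lower one. The sequences are from RefSeq on GRCh38.p14, written 5′ to 3′ along the strand of the gene, and capitals mark GC boxes.
IGFBP2 start 1, chr2:216632578-216632827, plus strand: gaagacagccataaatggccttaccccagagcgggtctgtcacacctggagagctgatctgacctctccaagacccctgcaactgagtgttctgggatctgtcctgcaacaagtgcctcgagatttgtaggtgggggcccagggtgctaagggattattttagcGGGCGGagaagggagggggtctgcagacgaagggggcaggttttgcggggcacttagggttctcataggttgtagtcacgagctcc
IGFBP2 start 2, chr2:216633170-216633419, plus strand: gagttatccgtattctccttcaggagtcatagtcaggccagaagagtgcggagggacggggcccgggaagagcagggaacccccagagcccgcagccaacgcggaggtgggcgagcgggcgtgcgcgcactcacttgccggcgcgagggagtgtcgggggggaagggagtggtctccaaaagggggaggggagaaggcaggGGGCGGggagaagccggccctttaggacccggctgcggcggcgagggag
IGFBP2 start 3, chr2:216659317-216659566, plus strand: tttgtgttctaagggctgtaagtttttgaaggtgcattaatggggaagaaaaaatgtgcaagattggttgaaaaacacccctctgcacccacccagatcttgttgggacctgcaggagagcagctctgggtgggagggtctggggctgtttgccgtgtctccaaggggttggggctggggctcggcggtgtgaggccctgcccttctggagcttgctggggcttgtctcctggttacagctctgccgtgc
IGFBP5, chr2:216695550-216695799, minus strand: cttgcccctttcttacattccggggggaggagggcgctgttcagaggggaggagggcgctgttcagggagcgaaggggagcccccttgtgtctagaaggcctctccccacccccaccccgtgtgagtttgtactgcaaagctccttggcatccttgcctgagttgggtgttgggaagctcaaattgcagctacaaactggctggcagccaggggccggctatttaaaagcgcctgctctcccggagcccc
IGFBP3, chr7:45921273-45921522, minus strand: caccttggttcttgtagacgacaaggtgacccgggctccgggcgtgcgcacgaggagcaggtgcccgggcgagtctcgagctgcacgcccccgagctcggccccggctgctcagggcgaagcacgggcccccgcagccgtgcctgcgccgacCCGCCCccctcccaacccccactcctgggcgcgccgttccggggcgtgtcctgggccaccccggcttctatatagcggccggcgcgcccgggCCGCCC
IGF1R, chr15:98648289-98648538, plus strand: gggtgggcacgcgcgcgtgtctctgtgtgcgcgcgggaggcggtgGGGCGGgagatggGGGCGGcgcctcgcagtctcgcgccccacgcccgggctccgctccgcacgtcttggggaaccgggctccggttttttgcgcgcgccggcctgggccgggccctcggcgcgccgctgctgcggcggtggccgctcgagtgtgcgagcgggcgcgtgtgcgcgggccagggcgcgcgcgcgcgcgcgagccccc

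Of the 10 member genes, 7 matched the promoter table, with 9 listed starts. A GC box (GGGCGG, searched on both strands) is the letter pattern read by Sp1-type factors, and a TATA box was searched as TATAAA, also on both strands. Of the 35116 promoters of this length in the table, 42.6% held a GC box and 10.7% a TATA box. The windows before IGFBP2 starts 1 and 2 held 1 GC box each, and the window before start 3 held none. IGFBP5 had no GC box, while IGFBP3 and IGF1R had 2 each. None of the 6 printed windows held TATAAA, and among the other members IGFBP4 had 1. CpG dinucleotides numbered 7, 22 and 4 before the IGFBP2 starts, 8 before IGFBP5, 32 before IGFBP3 and 48 before IGF1R, against a median of 11 over all promoters. The IGF1R window had more CpG than 99.7% of the promoters in the table. A match is a description of the letters and says nothing of binding.

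Both labels were checked against PROM1, the gene of the sorted antigen. Its log2 signal was 8.46 and 8.73 on the CD133+ arrays, against 3.31 and 3.35 on the CD133- arrays, which differ by 5.26 (SE 0.200, adjusted p = 0.000364 by limma). The 7 epithelial markers EPCAM, KRT8, KRT18, KRT19, CDH1, VIL1 and CDX2 had log2 signals from 6.11 to 14.18. None was called different, against 0.329% of all genes. At an unadjusted limma p under 0.05 there were 4 of the 7, against 15.9% of all genes. Of these, EPCAM, KRT8 and VIL1 were lower and CDH1 was higher in CD133+ cells. Over 8 markers of fibroblasts, endothelium, leukocytes and smooth muscle, log2 signals ran from 3.41 to 7.22. None of the 8 was called different or had an unadjusted limma p under 0.05. The sums over the 8 were 39.11 and 40.66 on the CD133+ arrays, against 38.04 and 39.57 on the CD133- arrays. All 4 arrays correlated at 0.979 to 0.991 across probe sets. Before the arrays were put on a common distribution, CD133- replicate 1 had an upper quartile of 6.90, against 6.60 to 6.71 on the other 3 arrays.

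Values below are log2 signals after quantile normalization, and differences are CD133+ minus CD133-. A probe set is called where its limma adjusted p, with Benjamini-Hochberg adjustment over all 54613 probe sets, is under 0.05. Of all probe sets, 99 were called, which is 0.181%, with 27 higher and 72 lower in the CD133+ clone. The 72 are 0.132% of those tested. Of the 27 family probe sets, 1 was called, and it was lower in the CD133+ clone. On 13 of the 27, the arrays of the clones did not overlap, against 43.9% of all probe sets. The CD133+ arrays were the higher on 7 of these, against 23.5% of all probe sets, and the lower on 6, against 20.4%. Since IGFBP2 led to the choice of the family, nothing is read from these counts. The median difference was 0.0027 over the family and 0.015 over all probe sets. Thus 11 of the 27 lay within 0.1 of 0, and 6 exceeded 0.5 in size: those of IGFBP2 and IGFBP3, the brighter one of IGFBP1 and both brighter ones of IGF1R.

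**Figure D1:**
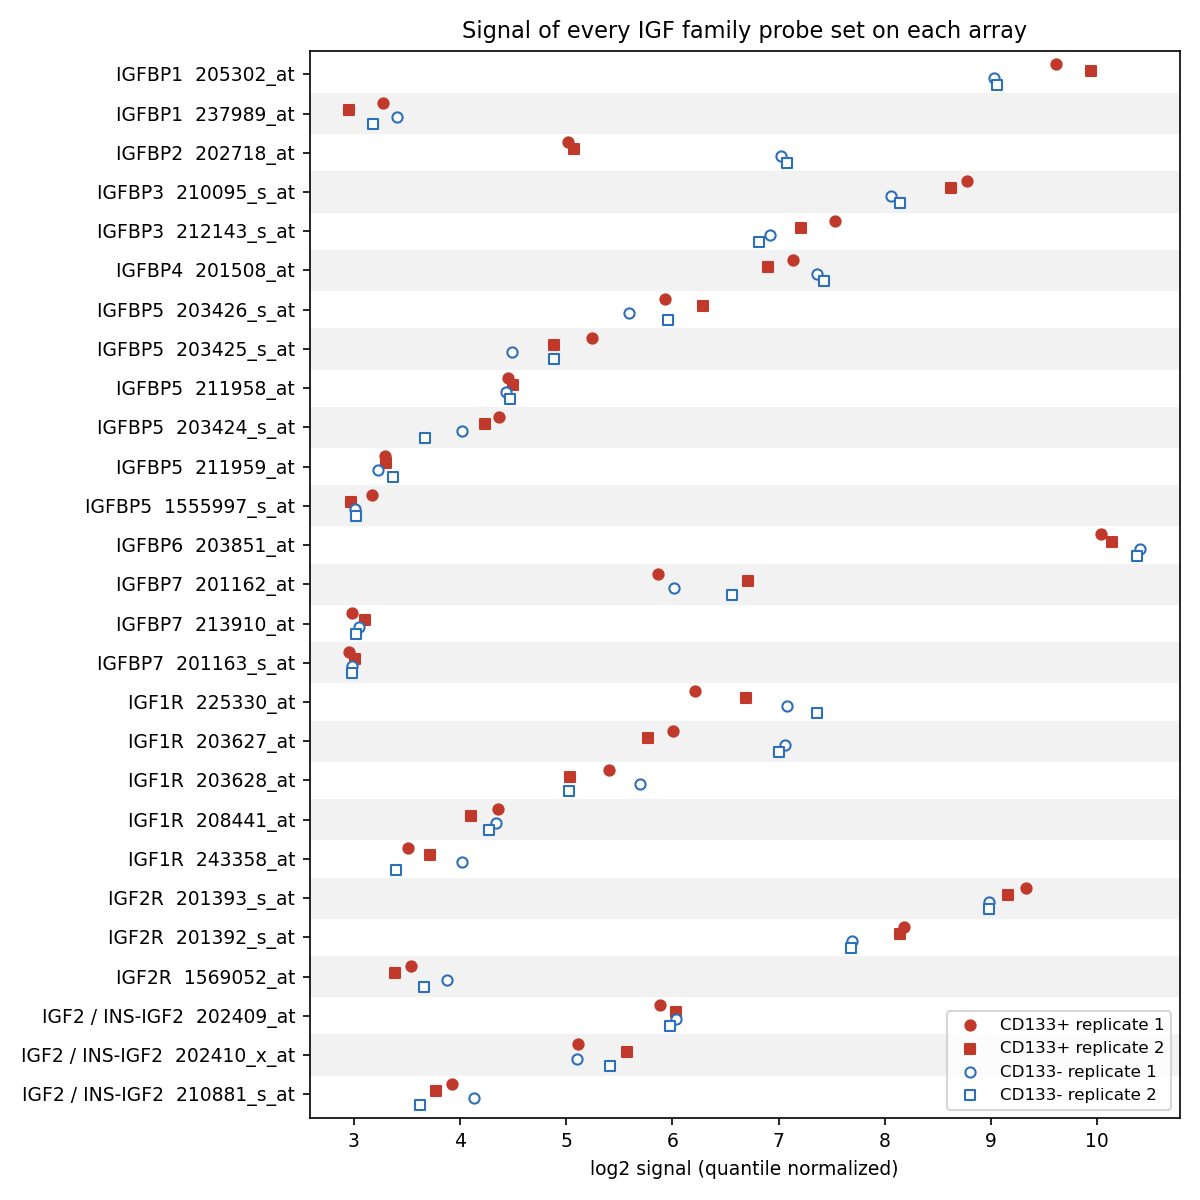
Log2 signal (horizontal axis, quantile normalized) of each of the 27 family probe sets (rows) on every array, with CD133+ arrays as filled red symbols and CD133- arrays as open blue symbols. The CD133+ arrays lie left of the CD133- arrays for IGFBP2 and for 2 of the 5 IGF1R probe sets, lie right of them for both IGFBP3 probe sets, and are mixed with them for IGFBP7 and IGF2.

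IGFBP2 was the member with the largest difference. This binding protein also carries an integrin-binding sequence and acts outside and inside the cell. Its single probe set, 202718_at, had log2 signals of 5.02 and 5.07 on the CD133+ arrays, against 7.02 and 7.07 on the CD133- arrays. Both CD133+ arrays were low and both CD133- arrays high, with no overlap. The means were 5.04 ± 0.040 in CD133+ and 7.05 ± 0.037 in CD133- cells (SD, n = 2 each), a difference of -2.01 (SE 0.186), or 4.02-fold lower in CD133+ cells. The arrays of the same clone were 0.056 apart in CD133+ and 0.052 apart in CD133-, while arrays of different clones were 1.95 to 2.06 apart. Only 11 of the 54613 probe sets had a more negative difference. In bulk RNA, fewer cells with the transcript and less transcript per cell cannot be told apart.

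The difference of IGFBP2 ranged from -2.15 with each array centred on its median to -1.98 with 1 array left out, and was -2.07 with the values as deposited. Its call was less stable than its size. The probe set was not called with the values as deposited, without a variance trend, at an adjusted p under 0.01, or without CD133- replicate 1. With the values as deposited 6 probe sets were called over the whole table, 3 of them higher in CD133+ cells, and with centred arrays 32, of which 7 were higher.

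IGFBP3 and IGFBP1 had the largest positive differences of the family. IGFBP3, the main IGF carrier in serum, had 2 probe sets. On 210095_s_at its log2 signal was 8.78 and 8.62 in CD133+ cells, against 8.06 and 8.15 in CD133- cells, a difference of 0.60 (SE 0.140), or 1.51-fold higher. On 212143_s_at it was 7.53 and 7.21 in CD133+ cells, against 6.92 and 6.82 in CD133- cells, a difference of 0.51 (SE 0.184), or 1.42-fold higher. The groups did not overlap on either probe set, though neither was called. Both probe sets carry the suffix that Affymetrix gives to designs matching more than 1 transcript. With the values as deposited the differences were 0.48 and 0.33, and with centred arrays 0.40 and 0.25.

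IGFBP1, a binding protein made mainly by the liver and lowered by insulin, was bright on 1 of its 2 probe sets. On 205302_at the log2 signal was 9.61 and 9.94 in CD133+ cells, against 9.02 and 9.06 in CD133- cells. The means were 9.77 ± 0.235 in CD133+ and 9.04 ± 0.026 in CD133- cells (SD, n = 2 each), a difference of 0.73 (SE 0.140), or 1.66-fold higher. The CD133+ arrays were both above the CD133- arrays but 0.333 apart from each other. The dim probe set 237989_at had 3.28 and 2.96 in CD133+ cells, against 3.41 and 3.19 in CD133- cells. There the groups overlapped and the difference was -0.18, so the probe sets of IGFBP1 differ in sign.

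IGFBP4 and IGFBP6 had small negative differences, each on 1 probe set. IGFBP4, which is cut by the protease PAPPA, had log2 signals of 7.14 and 6.90 in CD133+ cells, against 7.36 and 7.43 in CD133- cells, a difference of -0.38 (SE 0.172). IGFBP6, which prefers IGF2 over IGF1, had 10.03 and 10.14 in CD133+ cells, against 10.40 and 10.38 in CD133- cells, a difference of -0.31 (SE 0.0980). Both were lower on each CD133+ array than on either CD133- array, and neither was called. With the values as deposited the differences of IGFBP4 and IGFBP6 were -0.55 and -0.34, and with centred arrays -0.63 and -0.42.

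IGFBP5, which binds extracellular matrix, had 6 probe sets, and 5 of their differences were positive, from 0.026 to 0.46. The sixth was at -0.0023. The largest was on 203424_s_at, with 4.36 and 4.23 in CD133+ cells, against 4.02 and 3.67 in CD133- cells (SE 0.197), and it was 0.28 without CD133- replicate 2. These signals are under the median level of 4.53 over all probe sets. On 203425_s_at the log2 signal was 5.24 and 4.89 in CD133+ cells, against 4.49 and 4.88 in CD133- cells, so that the groups were kept apart by 0.0016 only, and the difference of 0.38 was 0.18 without CD133- replicate 1. On 203426_s_at it was 5.93 and 6.29 in CD133+ cells, against 5.59 and 5.95 in CD133- cells, and the groups overlapped. Here replicate 2 was higher than replicate 1 in both clones. The other 3 probe sets, 211958_at, 211959_at and 1555997_s_at, differed by at most 0.052 and also had log2 signals under that median.

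IGFBP7, a secreted protein of the vessel wall and connective tissue, showed no separation of the clones on any of its 3 probe sets. Its brightest, 201162_at, had 5.87 and 6.71 in CD133+ cells, against 6.01 and 6.56 in CD133- cells. Replicate 2 exceeded replicate 1 by 0.847 in CD133+ and by 0.551 in CD133- cells, while the means differed by 0.0027 (SE 0.315). That error is the largest of the family. The probe sets 213910_at and 201163_s_at were dim, at 2.96 to 3.11, and differed by 0.0081 and 0.0031. All 3 differences turned negative with centred arrays.

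**Figure D2:**
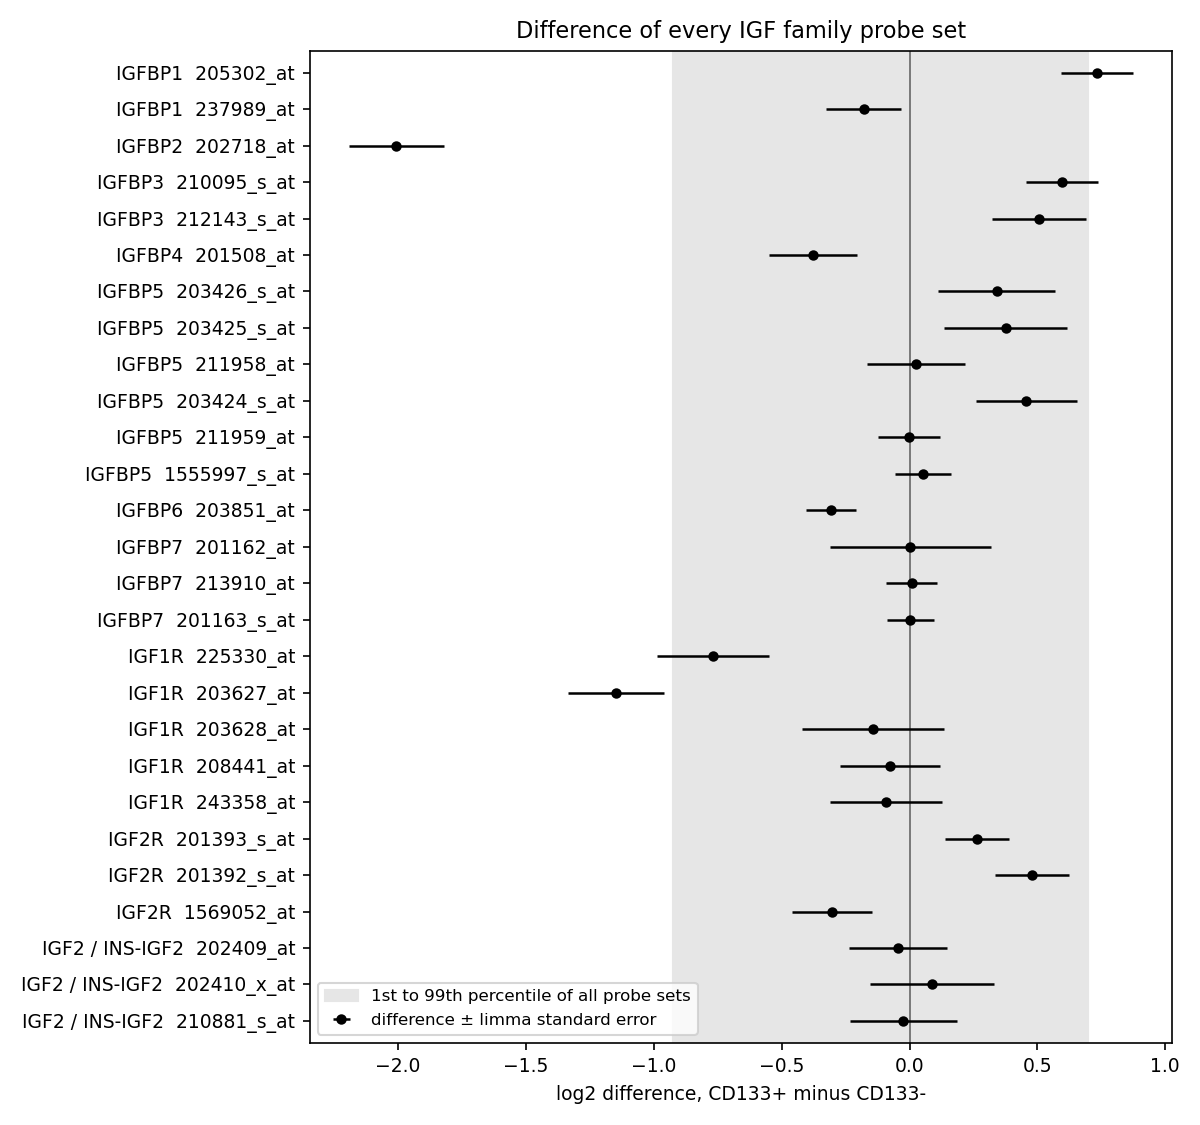
Log2 difference, CD133+ minus CD133- (horizontal axis), of each family probe set (rows), with points for the difference and bars for the limma standard error; the grey band spans the 1st to 99th percentile of all probe sets, -0.92 to 0.70. IGFBP2 at -2.01 and IGF1R 203627_at at -1.15 lie left of the band, IGFBP1 205302_at at 0.73 lies right of it, and the others lie within it.

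IGF1R, the signalling receptor, had 5 probe sets, all with a negative difference, of which 2 separated the clones. On 203627_at the log2 signal was 6.001 and 5.766 in CD133+ cells, against 7.060 and 7.002 in CD133- cells. The means were 5.88 ± 0.166 in CD133+ and 7.03 ± 0.041 in CD133- cells (SD, n = 2 each), a difference of -1.15 (SE 0.188), or 2.21-fold lower. On 225330_at it was 6.21 and 6.69 in CD133+ cells, against 7.08 and 7.36 in CD133- cells, a difference of -0.77 (SE 0.220), or 1.70-fold lower. The CD133+ arrays were below the CD133- arrays on both, though replicate 2 of 225330_at was the higher in each clone. With the values as deposited the differences were -1.26 and -0.93, and neither probe set was called in the reported fit. Leaving out 1 array at a time moved the difference of 203627_at between -1.26 and -1.03, and that of 225330_at between -1.01 and -0.53.

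The remaining IGF1R probe sets did not separate the clones. On 203628_at the log2 signal was 5.40 and 5.03 in CD133+ cells, against 5.70 and 5.03 in CD133- cells, a difference of -0.14. The CD133- arrays alone were 0.669 apart there. The probe sets 208441_at and 243358_at had levels of 3.40 to 4.35 and differences of -0.076 and -0.091. Each of these 3 changed sign when 1 array was left out, so the shared negative sign of the 5 probe sets rests on the 2 brighter ones.

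IGF2R, the receptor that clears IGF2, was higher in the CD133+ clone on its 2 bright probe sets. On 201392_s_at the log2 signal was 8.18 and 8.14 in CD133+ cells, against 7.69 and 7.68 in CD133- cells, a difference of 0.48 (SE 0.145), or 1.39-fold. On 201393_s_at it was 9.33 and 9.16 in CD133+ cells, against 8.98 and 8.98 in CD133- cells, a difference of 0.26 (SE 0.125). No CD133+ array was as low as a CD133- array on either. The dim 1569052_at went the other way, with 3.54 and 3.39 in CD133+ cells, against 3.88 and 3.66 in CD133- cells. Its difference was -0.30, or -0.19 without CD133- replicate 1, and there too the groups did not overlap. All 3 probe sets of IGF2R thus separated the clones, but not in the same direction. None of the 3 was called, and with centred arrays the bright ones differed by 0.25 and 0.11.

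The ligand gene showed no separation. On 202409_at, annotated to both IGF2 and INS-IGF2, the log2 signal was 5.89 and 6.03 in CD133+ cells, against 6.03 and 5.98 in CD133- cells, a difference of -0.046 (SE 0.191). On 202410_x_at it was 5.11 and 5.58 in CD133+ cells, against 5.10 and 5.41 in CD133- cells, a difference of 0.087, with replicate 2 higher in both clones. On 210881_s_at it was 3.93 and 3.78 in CD133+ cells, against 4.13 and 3.62 in CD133- cells, a difference of -0.024. The groups overlapped on all 3, and each difference changed sign in at least 1 other setting.

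The spread between arrays sets what these values can carry. A gap of over 0.3 between the arrays of a clone occurred on 12 of the 27 probe sets. Of the 27 differences, 11 changed sign in at least 1 of the 6 settings that move a difference (values as deposited, centred arrays, and each of the 4 arrays left out), and 16 in none. Where the arrays of the clones do not overlap, leaving out 1 array cannot turn the sign. The median standard error over all probe sets was 0.177.

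The genes next to the family members on the chromosome differed in both directions. IGFBP2 and IGFBP5 lie side by side on chromosome 2 in opposite orientation, and their brightest probe sets differed by -2.01 and 0.34. Over the 5 measured genes on each side of IGFBP2 the median difference was 0.062, with a range of -0.54 to 0.39. Of these 10 genes, 6 were positive, 4 negative and none called in the limma fit over all probe sets, read at the brightest probe set of each gene, against 65 of 19777 genes called, or 0.329%. On all of chromosome 2 the median over 1309 genes was -0.036, and 15 were called. IGFBP1 and IGFBP3 are neighbours on chromosome 7, with 0.73 and 0.60 on their brightest probe sets. The 10 genes around IGFBP1, with IGFBP3 among them, had a median of 0.13 and a range of -0.081 to 0.81. The median was 0.089 over the 932 genes of chromosome 7 and 0.047 over all genes. Of the 932, 11 were called, against the 0.329% of all genes. Around IGF1R the median was -0.0059, with a range of -0.23 to 0.34.

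**Figure D3:**
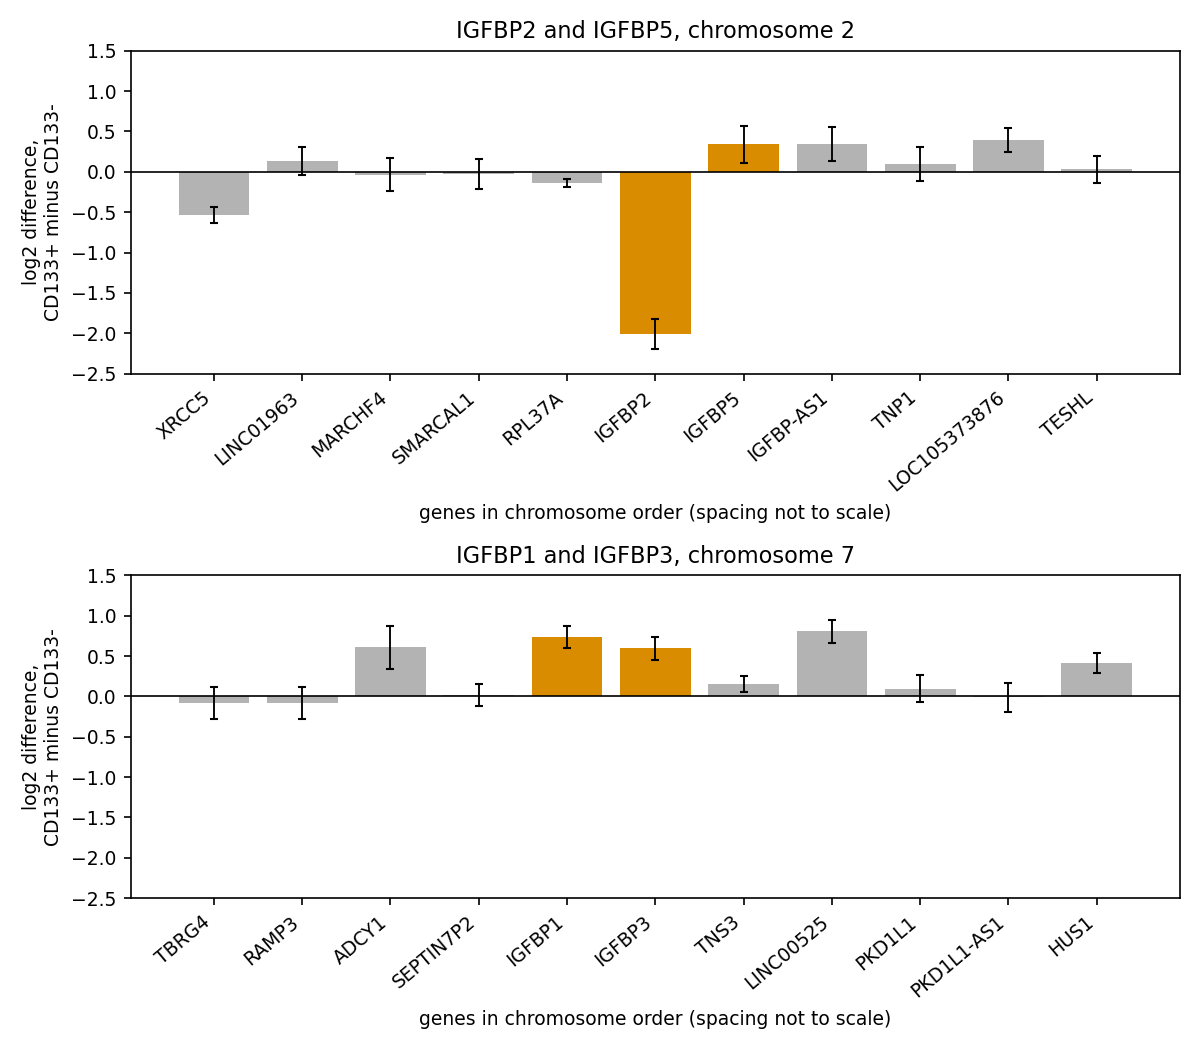
Log2 difference, CD133+ minus CD133- (vertical axis), of the brightest probe set of each gene in chromosome order around IGFBP2 and IGFBP5 (top) and around IGFBP1 and IGFBP3 (bottom), with family members in orange, other genes in grey and bars for the limma standard error. IGFBP2 at -2.01 stands beside IGFBP5 at 0.34, and IGFBP1 at 0.73 stands beside IGFBP3 at 0.60.

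The 5 genes whose 4 values, each less the gene's own mean, lay nearest to those of IGFBP2 were CSTA, SERPINB5, PKIB, LAMB1 and CGNL1. Their Euclidean distances over the 4 arrays were 0.182, 0.214, 0.292, 0.350 and 0.397 log2 units. CSTA, a cysteine protease inhibitor, had 4.62 and 4.48 in CD133+ cells, against 6.64 and 6.52 in CD133- cells, and SERPINB5 encodes maspin, a member of the serpin family. PKIB encodes an inhibitor of protein kinase A, LAMB1 a laminin chain and CGNL1 a junction protein. Differences of the 5 ranged from -2.05 for PKIB to -1.66 for LAMB1. Each of the 5 had both CD133+ arrays below both CD133- arrays, as the choice by likeness to IGFBP2 implies.

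Of 64 other genes of the IGF pathway, 60 had a probe set naming them alone and are called measured here. The list of PI3K, AKT, mTOR and FOXO genes kept 16 of 20 by this rule. None of the 60 was called higher or lower, by limma over all probe sets. Over all 19777 genes 65 were called, or 0.329%, so little can be read from a count of 0. At an unadjusted p under 0.05 there were 17, of which 9 were higher and 8 lower in CD133+ cells. Over all 19777 genes 3150 passed, or 15.9%, with 8.3% higher and 7.63% lower. The median difference was 0.059 over the 60 and 0.047 over all genes, with 37 positive and 23 negative. For the other ligand, IGF1, the difference was 0.065, and it was -0.20 to 0.34 with 1 array left out. The insulin receptor INSR differed by 0.20, or 0.027 without CD133- replicate 2 and 0.017 with centred arrays. The receptor substrates IRS1 and IRS2 each differed by -0.20, with -0.30 to -0.088 for IRS1 and -0.30 to -0.094 for IRS2 when 1 array was left out. None of these 4 genes was called. IGF2BP1, IGF2BP2 and IGF2BP3, which bind the IGF2 mRNA, differed by -0.071, -0.055 and 0.027, and each of the 3 changed sign with 1 array left out. PAPPA, the protease of IGFBP4, differed by 0.20 on its brightest probe set and by 0.075 without CD133- replicate 2. Its 11 probe sets ran from -0.40 to 0.35, with a mean of 0.089. The PAPPA inhibitor STC2 differed by -0.15, and by -0.43 on its other probe set.

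The pathway genes farthest from 0 were named after their values were seen. GRB10, an imprinted adaptor that binds IGF1R and the insulin receptor and dampens their signal, had 9.70 and 9.41 in CD133+ cells, against 8.60 and 8.18 in CD133- cells. Its difference was 1.17 (SE 0.179, limma adjusted p = 0.0653), and all 4 of its probe sets were positive. CCN6, a matrix protein with an IGFBP-like domain, had 4.48 and 4.48 in CD133+ cells, against 5.75 and 5.65 in CD133- cells. Its difference was -1.22 (SE 0.201, limma adjusted p = 0.0732), while its other probe set was at 0.052. SOCS2, a suppressor of growth hormone signalling, differed by -0.93 (SE 0.206, limma adjusted p = 0.132). Averaged over all probe sets of a gene, the differences were 0.76 for GRB10, -0.58 for CCN6 and -0.52 for SOCS2. On the brightest probe set of each of these genes the arrays of the clones did not overlap, which their choice by size makes likely. The same held for 35 of the 60 pathway genes, against 43.9% of all probe sets. That share includes dim probe sets, and none was computed over genes at their brightest probe set, so nothing is read from this count. Leaving out 1 array at a time moved the GRB10 difference between 0.95 and 1.38.

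By role, 4 of the 10 measured proteins with an IGFBP-like domain passed an unadjusted p under 0.05, all lower in CD133+ cells, against the 15.9% of all genes that passed and the 7.63% that were lower. Of the 16 measured genes of PI3K, AKT, mTOR and FOXO there were 5, with 4 higher and 1 lower. The 13 substrates and adaptors had 4, with 2 in each direction, and the 4 cell surface partners of binding proteins had 2, both higher, against 8.3% of all genes. Among the 6 ligand, complex and related receptor genes 1 was higher, among the 8 proteases and inhibitors 1 was lower, and among the 3 IGF2 mRNA-binding proteins there was none. Limma with adjustment over all probe sets called 0 genes in each of these lists, against 0.329% of all genes.

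**Figure D4:**
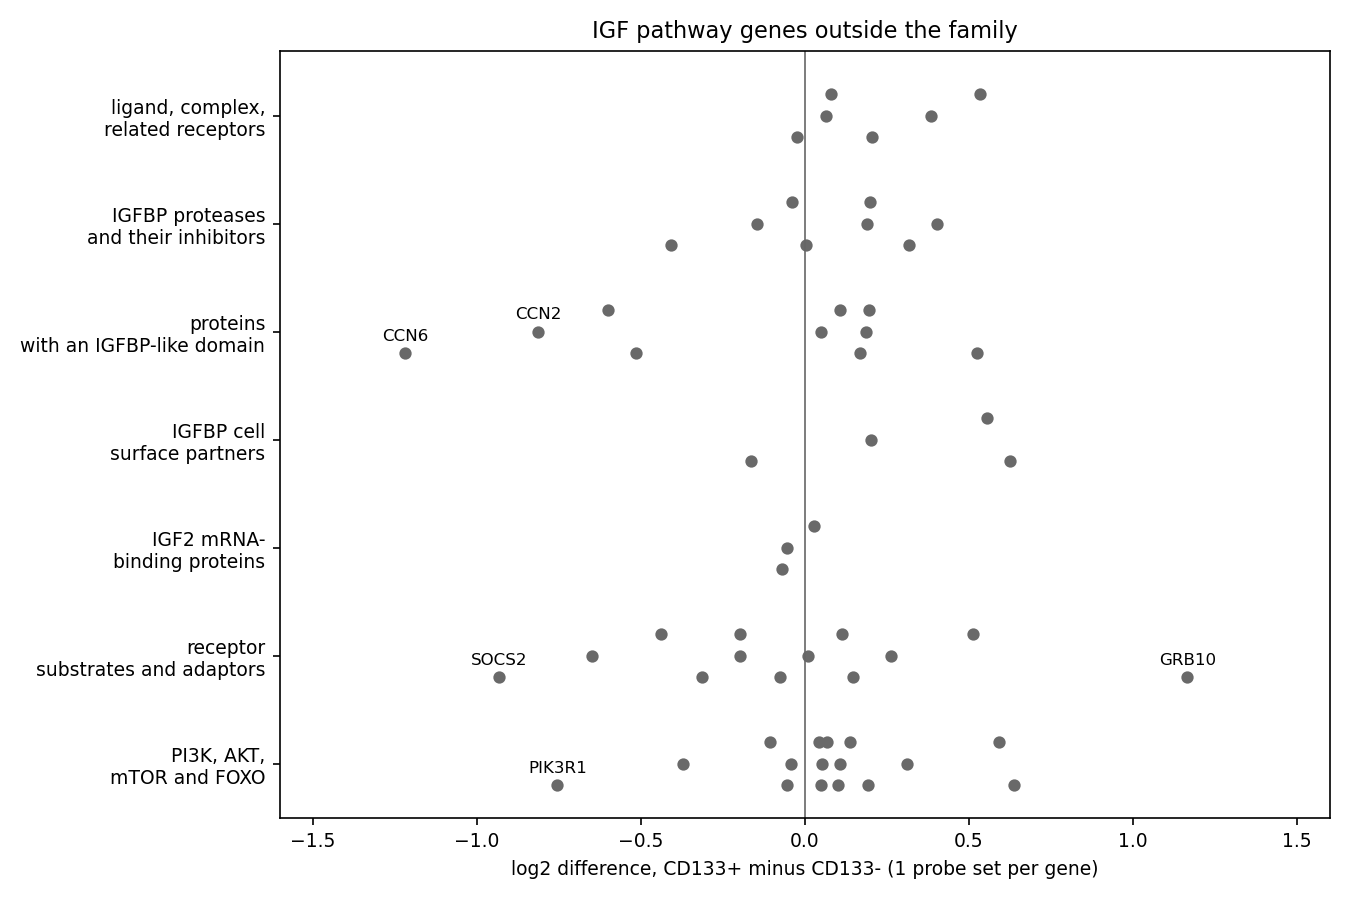
Log2 difference, CD133+ minus CD133- (horizontal axis), of 60 IGF pathway genes outside the family, 1 point per gene for its brightest probe set, in rows by role (points are offset vertically for legibility). Most lie near 0, with GRB10 at 1.17 and CCN6 at -1.22 at the ends, and SOCS2 at -0.93, CCN2 at -0.81 and PIK3R1 at -0.75 also labelled.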

How the data were processed

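Total RNA of 2 arrays per clone was measured, and 1 value per probe set and array was deposited. The authors deposited log2 signals, judged by the range of 2.52 to 14.57 over the arrays. Affymetrix Expression Console is named in the submitters' processing notes without a version, and how it corrected background and normalized is not given in the sources used here. As deposited, the CD133+ arrays had medians of 4.54 and 4.59 and the CD133- arrays of 4.45 and 4.53. Because this spread of 0.144 exceeded 0.1, the values were quantile normalized with limma 3.58.1 in R 4.3.3, which also removes any true difference in overall distribution.

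Of 54675 probe sets, 62 controls were left out. The platform annotation, which can be old, gave 1 gene for 41091, several for 1801 and none for 11721. Genes named alone by a probe set numbered 19777, of which 19731 matched RefSeq (GRCh38.p14) by gene ID. Shares of all genes are over these 19777 unless another total is given, and IGF2 is not among them. All 54613 probe sets were fitted with lmFit and eBayes with a variance trend and no level filter, so that dim members kept a value, and adjusted by Benjamini-Hochberg. No detection calls were used. The number of arrays limits the precision: with 2 against 2, a two-sided exact permutation test cannot give a p below 0.333, so calls rest on the variance shared across probe sets. For genes outside the family, the brightest probe set stood for the gene. The script was tested on simulated data.

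Members and lists were chosen with earlier results of these data known. The named genes are all members, PROM1, 9 preset pathway genes, the 5 profiles nearest to IGFBP2, and any called pathway gene or neighbour, of which there were none outside the family. GRB10, CCN6, SOCS2, CCN2 and PIK3R1 were added to these after their values were seen. Alternatives were other normalizations, level filters, variance models, units, thresholds, a replicate term and leaving out each array. Tables were made with Python 3.11.15, pandas 2.3.3 and numpy 2.4.6.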

Additional observations from a re-analysis of the deposited data

How the results depend on the processing

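The number of probe sets or genes called depended strongly on the processing, from the 99 probe sets reported, or 0.181% of 54613. It was 6 with the values as deposited, 32 with arrays centred on their medians, 2 without a variance trend and 6 at an adjusted p under 0.01. With levels below the median left out it was 336 of 27307 probe sets, or 1.23%. By gene, the mean of each gene's probe sets gave 178 of 19777, or 0.9%. The brightest probe set of each gene, with the lowest 20% of these left out together, gave 592 of 15821 genes, or 3.74%. Leaving out 1 array gave 9 (without CD133- replicate 1) to 520 (without CD133+ replicate 1). Of the family, 1 probe set was called in the reported fit and 0 with the values as deposited, without a trend or at an adjusted p under 0.01. With the brightest probe set per gene and that level filter together, 3 of the 9 member genes fitted were called (IGFBP1, IGFBP2, IGFBP3), against the 3.74% of all genes. Of the pathway genes, 0 were called as reported, against 0.329% of all genes. Under the same pair of choices 3 were called (CCN6, GRB10, SOCS2), against 3.74% of all genes. With levels below the median left out there were 2 (CCN6, GRB10), against 1.23% of all probe sets. The IGFBP2 difference was -2.15 with centred arrays, -2.07 as deposited and -2.03 to -1.98 with 1 array left out. The labels number the arrays 1 and 2 in each clone, but nothing says that equal numbers pair them, and same-numbered arrays deviated from their clone means with a correlation of 0.399 across probe sets. With the replicate block, 2409 of the 54613 probe sets were called, or 4.41%. Beside that share, 5 of the 27 family probe sets were called (1 each of IGFBP1, IGFBP2 and IGFBP3, and 2 of IGF1R). Of the 60 measured pathway genes, 6 were called. The median of all differences was 0.015 as reported, 0.036 as deposited and -0.042 with centred arrays. Fewer features or arrays entered some of the fits, and the cause of these shifts was not tested.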
